A study of Sus scrofa with 6 samples.

Results

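The genes described here encode the eukaryotic translation initiation factors (eIFs), the eIF2 kinases and the eIF4E-binding proteins of the pig. They were taken as every gene ID whose deposited gene name starts with EIF and a digit, which gave 45 of the 31908 gene IDs in the table, spread over 146 listed transcripts. RNA was sequenced from IPEC-J2 cells, a non-transformed epithelial cell line from the small intestine of the pig, to ask how chenodeoxycholic acid (CDCA), a primary bile acid made in the liver, affects the function of intestinal epithelial cells. Cells of both groups grew in 6-well plates and differed, as described, by the treatment: the CON group received phosphate-buffered saline (PBS) and the CDCA group received CDCA at a single dose, and RNA was taken after 24 h. Each group had 3 libraries, all from this 1 cell line, so they model cultured epithelium and no animal. The paper calls the libraries of a group biological replicates, but neither it nor the labels say whether they came from separate cultures, so p-values measure only the spread between these libraries, which may be technical.

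Initiation is the step at which the small ribosomal subunit, loaded with initiator tRNA by eIF2, is brought to an mRNA and scans to the start codon. The eIF4F complex (the cap-binding protein eIF4E, the scaffold eIF4G and the RNA helicase eIF4A) recruits the mRNA, eIF3 holds the pieces together on the small subunit, eIF1 guards the choice of start codon and eIF5B joins the large subunit. Cells slow initiation mainly at eIF2, whose alpha subunit is phosphorylated by 4 stress-sensing kinases so that it blocks its own exchange factor eIF2B, and at eIF4E, which is sequestered by the eIF4E-binding proteins.

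Levels are given in TPM, a transcript abundance corrected for transcript length and scaled to the library total, so that levels of different genes can be set side by side. TPM keeps no record of the reads behind a value, so no interval for counting error could be given. The listed TPM of a library summed to 351770 to 366073, which is 35.2% to 36.6% of the 1000000 TPM of a full set of transcripts, so each level, share and sum below covers the listed transcripts alone. The transcripts of the 13 protein-coding genes of mitochondrial DNA took 13.8% to 15.0% of that sum in the CON libraries and 2.90% to 3.45% in the CDCA libraries. Of 8 intestinal epithelial markers, 7 were matched and 4 reached a mean of 1 TPM (EPCAM, KRT8, KRT18 and CLDN4), and the matched markers summed to 624 to 648 TPM in CON and 1182 to 1322 TPM in CDCA. Most of that difference was CLDN4, at 225 ± 11.2 TPM in CON and 806 ± 50.5 TPM in CDCA, while EPCAM and KRT18 were at 1.31 and 1.15 times and KRT8 at 0.921 times their CON means. CDH1, VIL1 and CDX2 were listed below 1 TPM. Markers of other cells summed to at most 1.83 TPM (5 fibroblast genes, none at 1 TPM or more), 2.54 TPM (4 immune genes, 1 at 1 TPM or more) and 2.31 TPM (2 matched endothelial genes, 1 at 1 TPM or more) in any library. The part of the mitochondrial share and of the marker levels in the results below was not tested, and in bulk RNA fewer cells with a transcript and less of it per cell cannot be told apart.

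The initiation factor genes moved in both directions after CDCA. EIF1, which guards start codon choice, was listed at about double its CON level, and EIF2S2, EIF3E, EIF3H, EIF4B and EIF4E3 also rose by more than 0.5 on the log2 scale, EIF3H least securely. EIF4G1, the main scaffold of eIF4F, fell to 0.522 of its CON level, and EIF3B, EIF4A1, EIF4EBP2 and EIF5B fell by 0.50 to 0.60 on that scale. Of the 45 genes, 39 averaged 1 TPM or more across all 6 libraries and were tested with limma on log2(TPM + 1). At a false discovery rate (FDR) under 0.05 over all tested genes, 12 rose, 10 fell and 17 did not pass. That is 56.4% of the tested members, near the 53.2% of all 8708 tested genes that passed (29.3% higher and 23.9% lower), so the count says nothing particular about these genes. Their median log2 fold change was 0.09, beside 0.05 over all tested genes.

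No member was called at an FDR under 0.05 with a log2 fold change over 1 in size, which 7.42% of all tested genes were, while 23 members had an unadjusted limma p under 0.05. CON and CDCA libraries were fully apart in 24 of the 39 members, against 61.5% of all tested genes. The fold changes are on the log2(TPM + 1) scale, which understates the change of low genes. When the libraries were scaled to the same total without the mitochondrial genes, the median of all genes shifted by −0.13 and the members split into 8 higher and 16 lower. All tested genes moved with them, from 55.0% higher among those that passed to 38.6%. In that scaling EIF1 was at 0.83, EIF4E3 at 0.76, EIF2S2 at 0.56, EIF3E at 0.46, EIF4B at 0.44 and EIF3H at 0.46 without passing. The falls were then larger, at −1.08 for EIF4G1, −0.75 for EIF3B, −0.71 for EIF4EBP2, −0.67 for EIF5B and −0.65 for EIF4A1.

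**Figure D1:**
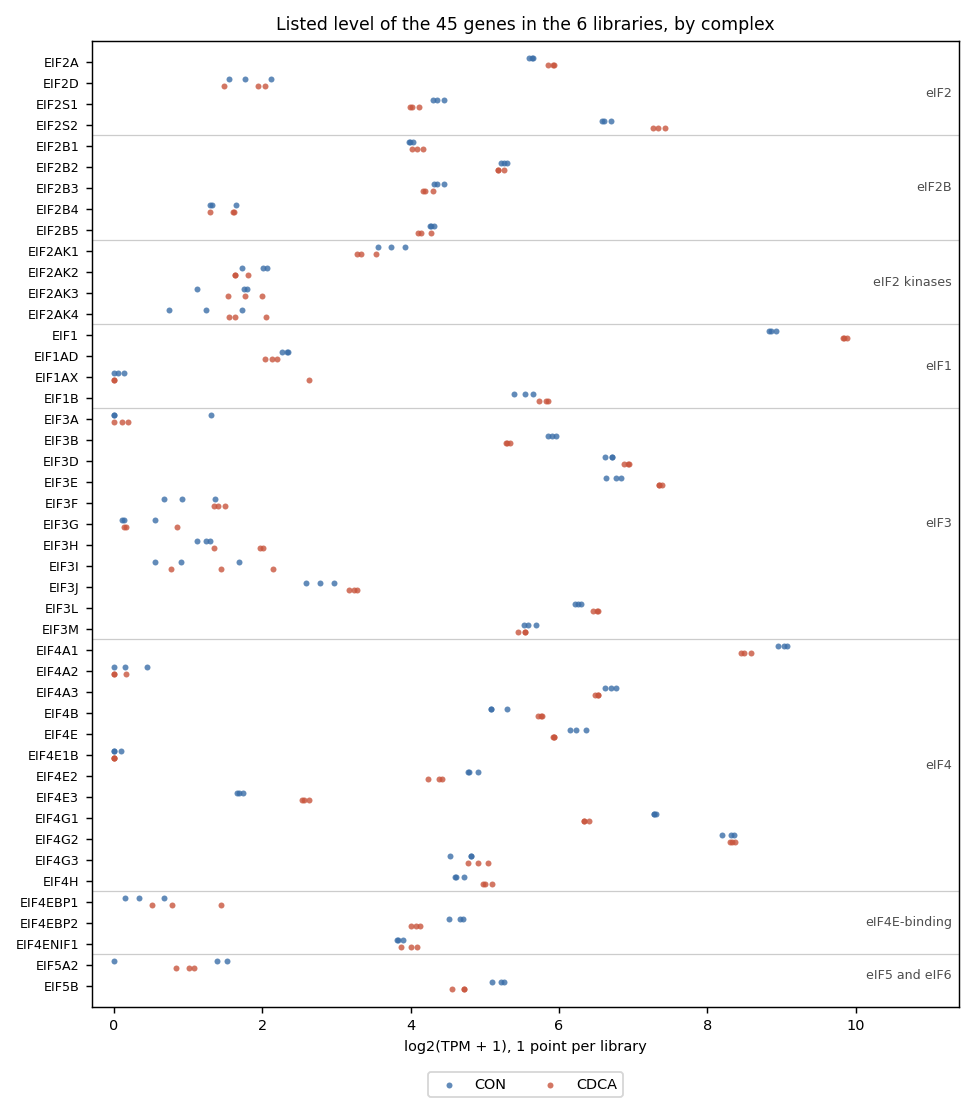
Level of each of the 45 genes as log2(TPM + 1) on the horizontal axis, 1 point per library, CON in blue and CDCA in red, grouped by complex. EIF1 and EIF4A1 lie at the top of the scale, and EIF1AX, EIF3A, EIF3G, EIF4A2, EIF4E1B and EIF4EBP1 have a mean under 1 TPM.

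Listed levels differed widely between subunits of 1 complex. EIF4A1 (518 ± 20.6 TPM, SD, n = 3, in CON) and EIF1 (467 ± 15.2 TPM) were the most abundant members, followed by EIF4G2 (312 ± 18.4 TPM), EIF4G1 (156 ± 1.88 TPM) and EIF3E (107 ± 7.59 TPM). Several core subunits were listed at or near 0. The large eIF3 scaffold subunit EIF3A had 0, 0 and 1.48 TPM in CON and 0.08, 0.14 and 0 TPM in CDCA. EIF3G stayed between 0.08 and 0.80 TPM in every library, and EIF4A2, the close copy of EIF4A1, between 0 and 0.36 TPM. EIF1AX, which works beside eIF1 on the scanning subunit, was listed at 0.10 TPM or less in 5 libraries and at 5.17 TPM in CDCA replicate 3. EIF4E1B, a germ cell form of eIF4E, was listed at 0.07 TPM in CON replicate 1 and at 0 in the other libraries. Every cell needs eIF3, so a listed value near 0 can be an estimate that missed the gene's transcripts, and no difference is drawn from these genes.

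The eIF2 complex brings the initiator tRNA to the small subunit, and its listed subunits moved apart. EIF2S2, the beta subunit, was listed at 103, 96.8 and 95.1 TPM across the CON libraries, against 161, 154 and 172 TPM in CDCA. All CDCA libraries were above all CON libraries, and the log2 fold change was 0.71 (SE 0.05, limma FDR 8.3e-05). EIF2S1, the alpha subunit and the substrate of the eIF2 kinases, was listed at 20.9, 18.6 and 19.6 TPM across the CON libraries, against 15.2, 14.8 and 16.3 TPM in CDCA. Here every CDCA library was below every CON library, and the log2 fold change was −0.33 (SE 0.06, limma FDR 0.0043).

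The ratio of EIF2S2 to EIF2S1 was 4.95, 5.19 and 4.86 in CON and 10.6, 10.4 and 10.6 in CDCA. This ratio was chosen after the values were seen, needs no scaling between libraries, and had an exact two-sided permutation p of 0.1, the smallest that 3 libraries against 3 allow (adjusted p = 0.11 over the 11 sums and ratios compared). EIF2A, whose symbol names a separate tRNA-binding factor and not the alpha subunit of eIF2, rose from 48.3 ± 0.917 to 58.9 ± 1.70 TPM (log2 fold change 0.28, SE 0.04, limma FDR 0.0013), and by 0.13 in the scaling without the mitochondrial genes (FDR 0.025). EIF2D, a factor of reinitiation and ribosome recycling, was low and varied as much within groups as between them (2.56 ± 0.727 TPM in CON and 2.58 ± 0.686 TPM in CDCA, FDR 0.98).

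The exchange factor eIF2B reloads eIF2 with GTP. None of its 5 genes passed the test, where 53.2% of all tested genes did, and a count over 5 genes says little. Their log2 fold changes ran from −0.15 to 0.10 with a median of −0.06. EIF2B1, the regulatory alpha subunit, was at 15.0 ± 0.312 TPM in CON and 16.1 ± 0.897 TPM in CDCA (FDR 0.20). The regulatory beta subunit EIF2B2 was at 37.3 ± 0.984 and 35.9 ± 1.28 TPM (FDR 0.34), and the regulatory delta subunit EIF2B4 at 1.69 ± 0.373 and 1.85 ± 0.341 TPM (FDR 0.65). Of the catalytic part, the gamma subunit EIF2B3 was listed at 20.9, 19.5 and 18.8 TPM across the CON libraries, against 17.3, 16.9 and 18.8 TPM in CDCA, and the epsilon subunit EIF2B5 at 18.5 ± 0.304 and 17.0 ± 1.19 TPM (FDR 0.16). The groups of EIF2B3 did not overlap, by 0.01 TPM, and its FDR was 0.084. In the scaling without the mitochondrial genes, EIF2B2, EIF2B3 and EIF2B5 passed as lower (log2 fold changes −0.21, −0.30 and −0.26), and EIF2B1 and EIF2B4 turned slightly negative without passing. EIF2B3 also passed as lower by the median ratio (−0.20) and with its highest listed transcript (−0.34).

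The 4 eIF2 kinases each sense another stress: EIF2AK1 (HRI) heme shortage and mitochondrial stress, EIF2AK2 (PKR) double-stranded RNA, EIF2AK3 (PERK) unfolded protein in the endoplasmic reticulum, and EIF2AK4 (GCN2) uncharged tRNA. EIF2AK1 was the most abundant of them, at 10.8, 12.4 and 14.1 TPM in CON and 10.5, 9.06 and 8.69 TPM in CDCA. The highest CDCA library lay just below the lowest CON library, and the log2 fold change was −0.36 (SE 0.11, limma FDR 0.032). This call did not hold in 6 of 12 alternatives, among them leaving out CON replicate 2 or 3 or CDCA replicate 2 or 3, where the FDR rose to between 0.078 and 0.094.

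The other kinases lay near the lower limit of the test and none passed. EIF2AK2 had 3.18, 3.02 and 2.31 TPM in CON and 2.09, 2.49 and 2.11 TPM in CDCA (log2 fold change −0.24, FDR 0.14). EIF2AK3 was at 2.38, 2.45 and 1.17 TPM in CON and 3.00, 1.89 and 2.40 TPM in CDCA (0.21, FDR 0.45), and EIF2AK4 at 1.37, 2.31 and 0.67 TPM in CON and 2.11, 1.94 and 3.13 TPM in CDCA (0.51, SE 0.27, FDR 0.15). The libraries of the 2 groups overlapped for each of these 3 kinases. EIF2AK2 passed as lower without CON replicate 3 (−0.35, FDR 0.048) and in the scaling without the mitochondrial genes (−0.35, FDR 0.044). Without CON replicate 3, EIF2AK3 was at −0.01. EIF2AK4 passed as higher without CON replicate 2 (0.75, FDR 0.041) and was at 0.26 without CON replicate 3 (FDR 0.37).

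**Figure D2:**
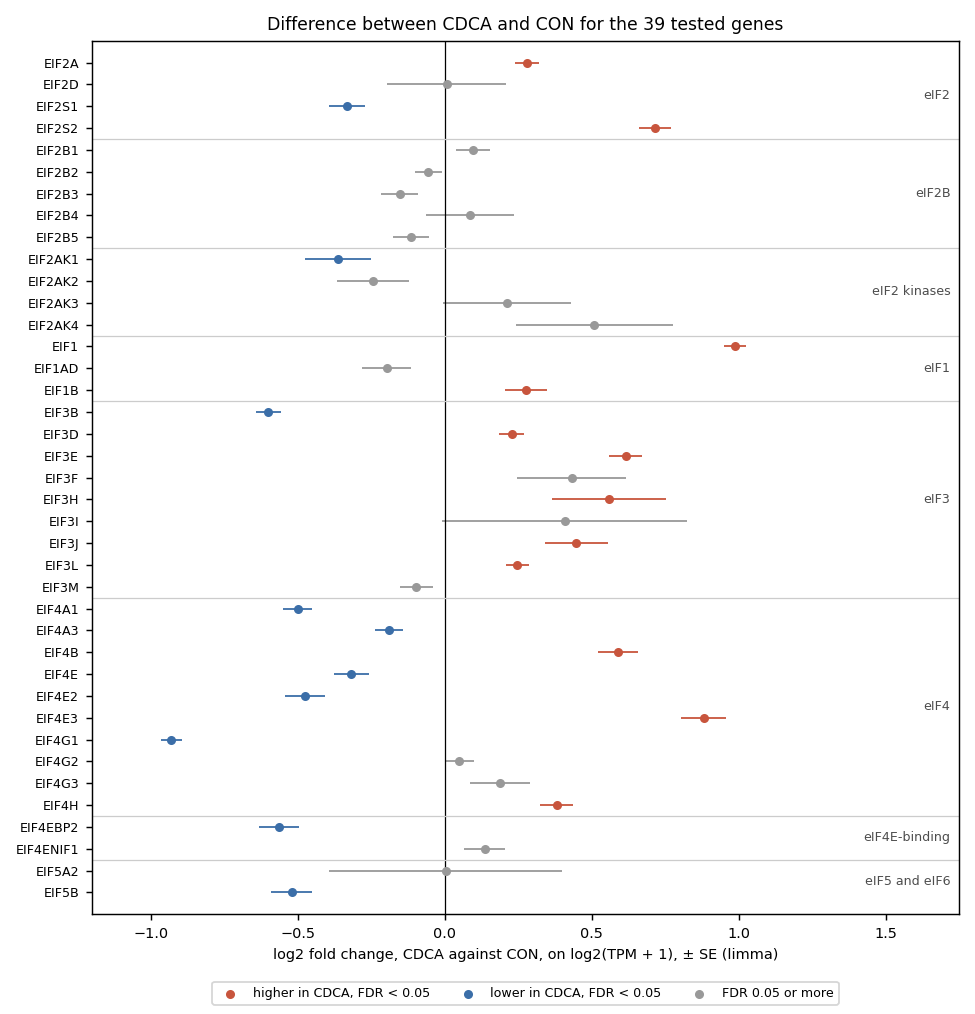
Log2 fold change of CDCA against CON on log2(TPM + 1) for the 39 tested genes, with its limma standard error as a line, grouped by complex. Red points passed as higher, blue points passed as lower and grey points did not pass at an FDR of 0.05. Changes run from −0.93 for EIF4G1 to 0.99 for EIF1, and the 5 eIF2B genes lie close to 0.

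On the log2(TPM + 1) scale EIF1 showed the largest rise among the members, while by the ratio of means the low gene EIF4E3 rose more. It was listed at 454, 484 and 462 TPM across the CON libraries, against 911, 945 and 921 TPM in CDCA, which gave a ratio of means of 1.98 and a fold change of 0.99 on the log2 scale (SE 0.04, limma FDR 6.8e-06). The spread within each group was small beside the gap between them. Both listed transcripts of EIF1 rose, the main one from 398 to 799 TPM (a ratio of 2.01) and the other from 68.3 to 126 TPM (1.85). EIF1B, a close copy of EIF1 with which it could share reads, was at 49.0, 45.4 and 41.2 TPM in CON and 56.6, 55.8 and 52.1 TPM in CDCA (0.28, limma FDR 0.016), and this call did not hold in the scaling without the mitochondrial genes (FDR 0.17) or without CDCA replicate 1 (FDR 0.053). EIF1AD, a nuclear protein with an eIF1A-like domain, was at 3.99 ± 0.157 TPM in CON and 3.36 ± 0.256 TPM in CDCA (−0.20, FDR 0.088). It passed as lower in both other scalings (−0.32 without the mitochondrial genes and −0.24 by the median ratio) and with its highest listed transcript (−0.36).

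**Figure D3:**
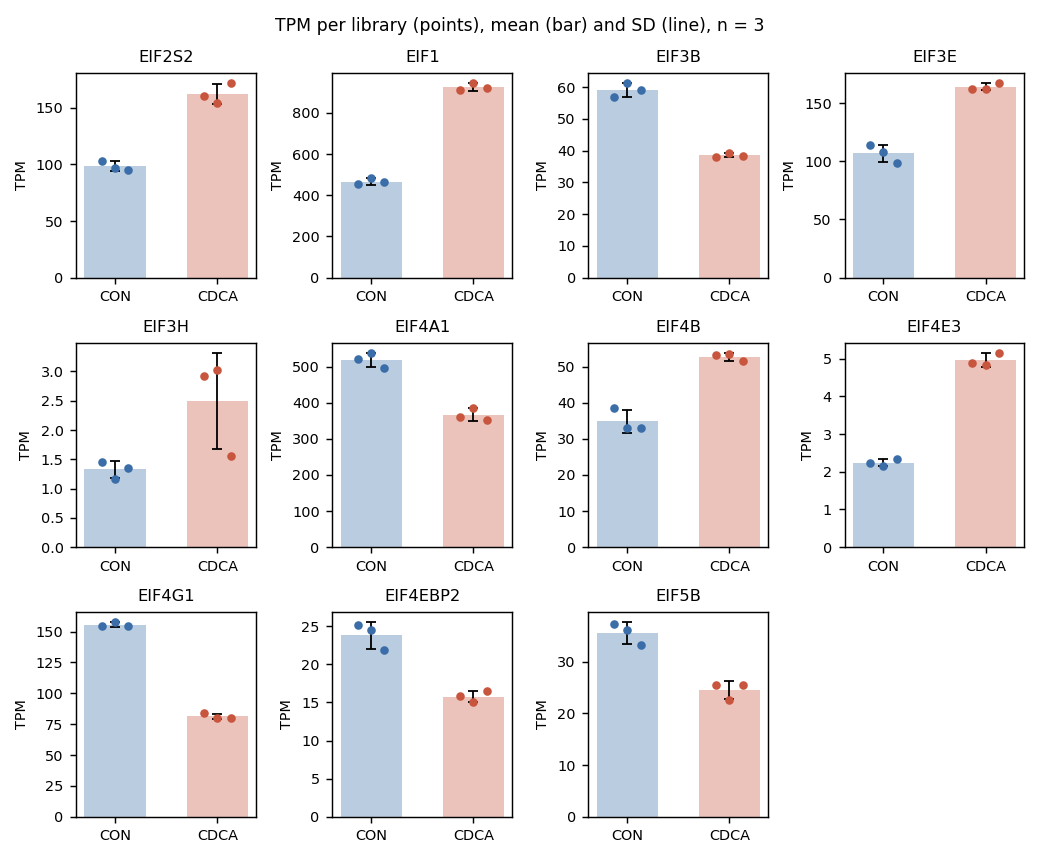
TPM per library of the 11 members with an FDR under 0.05 and a log2 fold change of at least 0.5 in size. Points are libraries, bars are group means and lines are SD (n = 3). The groups do not overlap in any panel, which this selection favours and which held for 61.5% of all tested genes. EIF3H has the widest spread relative to its mean, with CDCA replicate 3 at 1.55 TPM beside 2.93 and 3.02 TPM.

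The eIF3 complex, the largest of the initiation factors, held genes that rose and genes that fell: of 9 tested genes 5 rose, 1 fell and 3 did not pass, a share of 66.7% past the test beside 53.2% of all tested genes. EIF3B, a subunit of the conserved core, was listed at 57.0, 61.3 and 59.0 TPM across the CON libraries, against 38.2, 39.4 and 38.3 TPM in CDCA. It was lower in every CDCA library (log2 fold change −0.60, SE 0.04, limma FDR 6.4e-05). EIF3E, a subunit of the outer octamer and the most abundant listed eIF3 gene, was at 114, 108 and 98.7 TPM in CON and 162, 162 and 167 TPM in CDCA. The rise came to 0.62 on the log2 scale (SE 0.06, limma FDR 0.00018), with no overlap between groups.

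EIF3D, a subunit that can itself bind the cap of some mRNAs, rose from 102 ± 3.72 to 119.8 ± 3.37 TPM (0.23, limma FDR 0.0042), and EIF3L of the outer octamer rose from 75.4 ± 1.96 to 89.6 ± 2.20 TPM (0.25, limma FDR 0.0020). Neither passed in the scaling without the mitochondrial genes (FDR 0.20 and 0.077). EIF3J, a loosely bound subunit, rose from 5.90 ± 0.931 to 8.36 ± 0.326 TPM (0.45, limma FDR 0.012). EIF3H was low and its rise was the least secure, from 1.46, 1.17 and 1.36 TPM to 2.93, 3.02 and 1.55 TPM (0.56, SE 0.19, limma FDR 0.047), and it did not pass in 10 of 12 alternatives, with an FDR of up to 0.13. EIF3F (0.43, FDR 0.093), EIF3I (0.41, FDR 0.44) and EIF3M (−0.10, FDR 0.19) did not pass. The first pair were low, at 1.02 ± 0.492 and 1.18 ± 0.921 TPM in CON, while EIF3M was at 47.8 ± 2.77 TPM. Without the mitochondrial genes EIF3M passed as lower (−0.25, FDR 0.0068), and without CON replicate 2 EIF3F passed as higher (0.62, FDR 0.019) while it was at 0.28 without CON replicate 1. EIF3I ranged from 0.062 without CDCA replicate 3 to 0.75 without CDCA replicate 2, and did not pass when any 1 library was left out.

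The most abundant genes of the cap-binding complex eIF4F fell. EIF4G1 was listed at 155, 158 and 154 TPM across the CON libraries, against 83.8, 79.9 and 79.9 TPM in CDCA. The log2 fold change of −0.93 (SE 0.04, limma FDR 7.6e-06) was the largest fall among the members and ranged from −0.95 to −0.92 when single libraries were left out. The main listed transcript of EIF4G1 fell from 139 to 73.3 TPM (a ratio of 0.528), the next from 14.8 to 5.72 TPM (0.386), and the third was at 1.97 and 2.21 TPM.

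EIF4A1, the helicase of the complex, was listed at 522, 537 and 496 TPM across the CON libraries, against 362, 386 and 351 TPM in CDCA (log2 fold change −0.50, SE 0.05, limma FDR 0.00025). EIF4E, the cap-binding protein and the limiting member of the complex in many cells, was at 81.3, 74.0 and 69.8 TPM in CON and 60.0, 60.1 and 59.7 TPM in CDCA (−0.32, limma FDR 0.0042). The groups overlapped for neither gene. EIF4A3, which marks exon junctions and is not part of eIF4F, fell less, from 103 ± 5.40 to 90.2 ± 1.59 TPM (−0.19, limma FDR 0.014), and with its highest listed transcript alone the FDR was 0.066. Without the mitochondrial genes its log2 fold change was −0.34.

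The helpers and relatives of these factors did not follow 1 direction. EIF4B, which stimulates the helicase, was at 38.5, 32.9 and 33.0 TPM in CON and 53.3, 53.5 and 51.5 TPM in CDCA (0.59, SE 0.07, limma FDR 0.00048). EIF4H, a smaller factor that stimulates the same helicase, rose from 24.0 ± 1.15 to 31.6 ± 1.46 TPM (0.38, limma FDR 0.0015), and by 0.23 without the mitochondrial genes. EIF4E3, a low-abundance relative of eIF4E, was at 2.23, 2.15 and 2.33 TPM in CON and 4.89, 4.82 and 5.16 TPM in CDCA, a ratio of means of 2.22 (0.88, SE 0.08, limma FDR 0.00016).

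EIF4E2, a relative of eIF4E linked to repression of translation, fell from 27.4 ± 1.48 to 19.4 ± 1.39 TPM (−0.48, limma FDR 0.0014). When 0.1 TPM was added before the logarithm and not 1 TPM, the log2 fold change of EIF4E3 was 1.11, and it was then the 1 called member. EIF4G2 (DAP5), a scaffold that lacks the eIF4E-binding part, was at 312 ± 18.4 TPM in CON and 323 ± 7.02 TPM in CDCA (0.05, FDR 0.44). EIF4G3, the other full-length scaffold, was at 25.5 ± 2.88 and 29.1 ± 2.87 TPM (0.19, FDR 0.17), with 0.094 when CON replicate 3 was left out and 0.039 without the mitochondrial genes. The ratio of EIF4G2 to EIF4G1, chosen after the values were seen, was 2.12, 2.01 and 1.89 in CON and 3.94, 3.96 and 4.03 in CDCA (exact two-sided permutation p = 0.1, the smallest possible; adjusted p = 0.11).

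Among the eIF4E-binding genes, EIF4EBP2, a repressor that mTOR releases from eIF4E by phosphorylation, was listed at 25.1, 24.4 and 21.8 TPM across the CON libraries, against 15.9, 15.0 and 16.4 TPM in CDCA. It was lower in all 3 CDCA libraries (log2 fold change −0.56, SE 0.07, limma FDR 0.00063). EIF4EBP1, its better-known relative, had a mean under 1 TPM and was not tested, at 0.26, 0.11 and 0.59 TPM in CON and 1.71, 0.72 and 0.43 TPM in CDCA. EIF4ENIF1, which carries eIF4E into the nucleus and to processing bodies, was at 13.4 ± 0.437 and 14.9 ± 1.20 TPM (0.14, FDR 0.15). The summed TPM of EIF4EBP1 and EIF4EBP2 was 0.322 ± 0.00972 of the EIF4E level in CON and 0.279 ± 0.0155 of it in CDCA (exact two-sided permutation p = 0.1, adjusted p = 0.11). This ratio leaves out the ID described as eIF4E-binding protein 3, which has no deposited EIF name. That ID rose from 1.44 ± 0.351 to 2.81 ± 0.160 TPM, so no fall of the binding-protein genes together relative to EIF4E is read from the ratio.

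EIF5B, the GTPase that joins the large ribosomal subunit, was listed at 37.3, 36.1 and 33.2 TPM across the CON libraries, against 25.4, 22.5 and 25.4 TPM in CDCA. The groups did not overlap (log2 fold change −0.52, SE 0.07, limma FDR 0.00095). EIF5A2, the rarer form of a factor that keeps ribosomes moving on difficult sequences, was at 1.61, 1.87 and 0 TPM in CON and 1.01, 0.78 and 1.11 TPM in CDCA (0.00, FDR 0.99). Without CON replicate 3, where it was listed at 0, its log2 fold change was −0.48. Its CDCA mean was 0.967 TPM, so in that run it passed the filter only through its CON level, and no test is drawn from it.

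Summed over the listed genes of a group, the eIF2 genes, with EIF2A and EIF2D counted among them, came to 169 ± 4.90 TPM in CON and 239 ± 9.64 TPM in CDCA (log2 ratio 0.50). The eIF3 genes came to 401 ± 10.1 and 471 ± 1.96 TPM (0.23, and 0.079 without the mitochondrial genes) and the eIF1 genes to 516 ± 14.9 and 985 ± 17.0 TPM (0.93). The eIF4 genes summed to 1279 ± 50.8 TPM in CON and 1059 ± 14.1 TPM in CDCA (−0.27, and −0.43 without the mitochondrial genes), the eIF4E-binding genes to 37.5 ± 1.14 and 31.6 ± 0.382 TPM (−0.25, and −0.40 without the mitochondrial genes) and EIF5B with EIF5A2 to 36.7 ± 3.08 and 25.4 ± 1.85 TPM (−0.53). The eIF2B genes summed to 92.3 ± 1.27 and 88.5 ± 2.28 TPM (−0.06), and this log2 ratio was −0.21 without the mitochondrial genes, −0.11 by the median ratio and −0.12 with the highest listed transcripts. Each of these sums had groups that did not overlap and an exact two-sided permutation p of 0.1, the smallest possible (adjusted p = 0.11 over 11 comparisons), so none can pass a threshold of 0.05. The 4 kinases summed to 18.7 ± 1.27 TPM in CON and 16.5 ± 1.18 TPM in CDCA, and their groups overlapped (log2 ratio −0.18, exact permutation p = 0.2). Their log2 ratio was −0.34 without the mitochondrial genes and −0.35 with the highest listed transcripts. A sum is led by its most abundant gene, such as EIF2S2 in eIF2 and EIF4A1 in eIF4, and takes in little of the genes listed near 0. It takes in none of those without a deposited EIF name, such as eIF5A, eIF6 and eIF4E-binding protein 3.

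**Figure D4:**
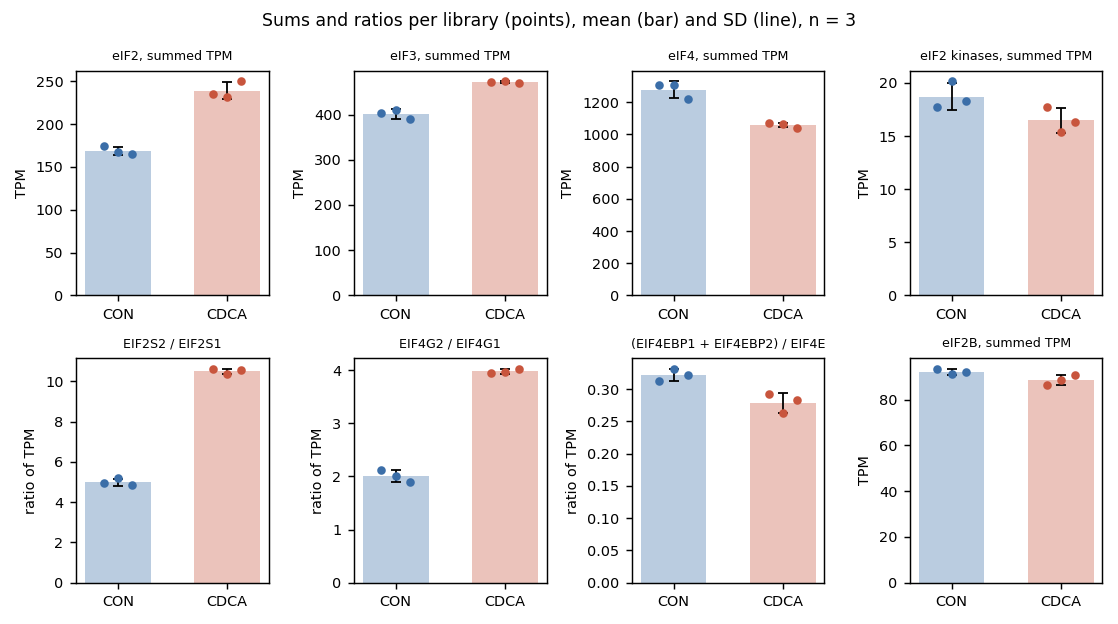
Summed TPM of the eIF2, eIF3, eIF4, eIF2 kinase and eIF2B genes, and 3 ratios of TPM, per library as points with group means as bars and SD as lines (n = 3). The ratio of EIF2S2 to EIF2S1 is at most 5.19 in CON and at least 10.4 in CDCA and that of EIF4G2 to EIF4G1 at most 2.12 in CON and at least 3.94 in CDCA, while the kinase sums overlap.

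The genes around the initiation factors were followed through lists written from general knowledge of translation, which held 48 genes (49 gene IDs). All of these lists were written with earlier results of these data known, so the shares past the test below are not independent of the values. Of the 36 tested IDs, a second DDIT3 ID passed the filter only through its CDCA level and is left out of the counts. PAIP2, at a mean of 0.95 TPM in CON and 1.31 TPM in CDCA, also reached the filter through CDCA. It stays in the counts, among those that did not pass. Of the other 35, 17 rose, 8 fell and 10 did not pass, a share of 71.4% past the test beside 53.2% of all tested genes, and the median of their log2 fold changes was 0.28. In the scaling without the mitochondrial genes, 15 rose and 9 fell with that ID included.

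Among the regulators of eIF2 phosphorylation, 4 of 7 tested genes rose and 1 fell, 71.4% past the test beside 53.2% of all tested genes. PPP1R15A (GADD34), the inducible subunit that directs phosphatase to eIF2, had 19.1, 25.0 and 18.7 TPM in CON and 39.9, 48.2 and 42.5 TPM in CDCA (1.03, SE 0.12, limma FDR 0.00059). Its constitutive counterpart PPP1R15B was at 3.25 ± 0.687 and 3.65 ± 1.34 TPM (0.10, FDR 0.74). PPP1CB, a catalytic subunit of protein phosphatase 1, rose from 120.3 ± 4.93 to 192 ± 9.97 TPM (0.67, limma FDR 8.8e-05). GCN1, the partner that activates GCN2 on stalled ribosomes, fell from 27.0 ± 0.525 to 19.2 ± 0.275 TPM (−0.47, limma FDR 0.00017).

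The transcription factors and targets that act when eIF2 is phosphorylated were higher where they were tested, and the list was written with some of these values known. TRIB3, ATF3 and 1 gene ID of DDIT3 were called as higher, where 29.3% of all tested genes passed as higher and 7.42% were called in either direction. TRIB3, a pseudokinase induced by ATF4 and CHOP, went from 3.77 ± 0.952 to 24.0 ± 4.19 TPM (2.40, limma FDR 7.8e-05), and ATF3, a stress-induced repressor, from 41.0 ± 1.18 to 145 ± 11.1 TPM (1.80, limma FDR 4.3e-06). DDIT3 (CHOP) had a log2 fold change of 3.86 (limma FDR 1.8e-06). The second gene ID with the name DDIT3 was at 0.223 ± 0.0833 TPM in CON and 2.09 ± 0.105 TPM in CDCA, given as values alone. ATF4, the factor whose own mRNA is translated when eIF2 is phosphorylated, was listed at no more than 0.04 TPM in any library, so its mRNA level could not be read. RNA levels do not measure the phosphorylation of eIF2 or the rate of translation.

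In the list of eIF4E and TOR signaling, 2 of 7 tested genes rose and 2 fell, 57.1% past the test and near the 53.2% of all tested genes. RHEB, the GTPase that activates mTORC1, rose from 117 ± 4.77 to 165 ± 7.18 TPM (0.50, limma FDR 0.00023), and MKNK1, a kinase of eIF4E, fell from 9.43 ± 0.242 to 6.59 ± 0.435 TPM (−0.46, limma FDR 0.0015). Among the initiation cofactors, 3 of 10 rose and 3 fell, 60.0% past the test and also near that share. The poly(A)-binding proteins PABPC1 (427 ± 9.22 to 628 ± 4.45 TPM, 0.56) and PABPC4 (37.9 ± 0.992 to 57.7 ± 2.17 TPM, 0.59), which bind eIF4G and so circularise the mRNA, rose. BZW1 and BZW2, which imitate eIF5 and compete for its partners, fell by 0.37 and 0.58 on the log2 scale.

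Elongation factors, which act after initiation, and release factors were read from the same fit. Of 6 tested elongation genes 5 rose and none fell at an FDR under 0.05 in limma, with 5 at an unadjusted p under 0.05, where 53.2% of all tested genes passed and 29.3% were higher. EEF1A1, which delivers aminoacyl-tRNA and is among the most abundant mRNAs of the cell, had 4977, 4970 and 4672 TPM in CON and 9677, 10158 and 9731 TPM in CDCA (1.02, SE 0.04, limma FDR 1.0e-05). EEF1A2 (0.85), EEF1B2 (0.78) and EEF1G (0.46) also rose. In the scaling without the mitochondrial genes EEF1A1 was at 0.86, EEF1A2 at 0.71, EEF1B2 at 0.63 and EEF1G at 0.31. EEF2, the translocase, had listed values of 0, 0 and 5.18 TPM in CON and 3.18, 3.94 and 2.81 TPM in CDCA and did not pass (1.22, FDR 0.18). The log2 fold change of EEF2 was 0.79 without CON replicate 1 or 2, and 3.17 when 0.1 TPM was added before the logarithm. Without CON replicate 3 it was 2.10, but every CON value left was then 0. That figure depends on the added 1 TPM, and no test is drawn from it. A value listed at 0 can be an estimate that missed the gene's transcripts. The release factors ETF1 (−0.19, limma FDR 0.025) and GSPT1 (−0.21, limma FDR 0.0059) fell, and the call of ETF1 did not hold in 6 alternatives. Without the mitochondrial genes they were at −0.34 and −0.36.

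**Figure D5:**
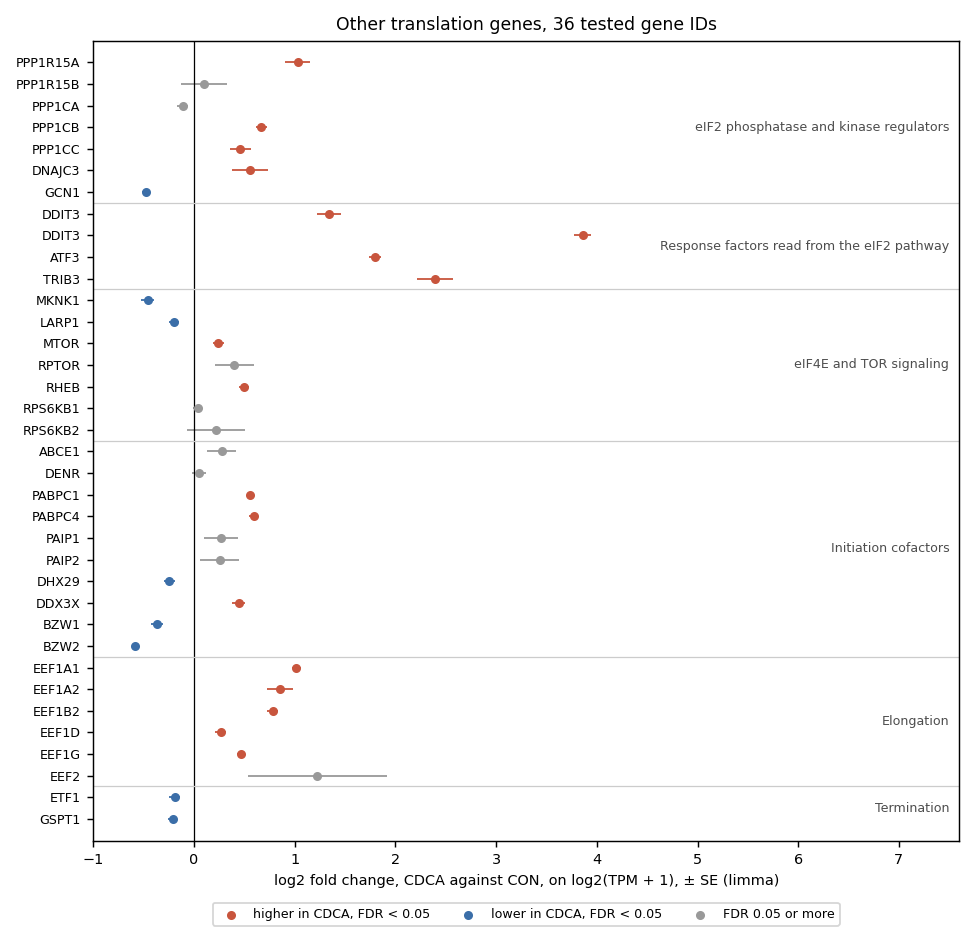
Log2 fold change of CDCA against CON on log2(TPM + 1) for the 36 tested gene IDs of the other translation lists, with its limma standard error as a line and the lists named at the right. The better-expressed of the 2 DDIT3 gene IDs (3.86), TRIB3 (2.40) and ATF3 (1.80) lie farthest right, and BZW2 (−0.58) farthest left.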

How the data were processed

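RNA from 3 CON and 3 CDCA libraries was analysed, grouped by their labels. Transcript levels were estimated by the authors with RSEM and deposited as TPM for 63041 transcripts, with no read counts; the submitters' processing notes also name Bowtie 0.12.2 and a mouse genome build, whereas the gene IDs are those of the pig, so no coordinates are given. RSEM divides reads shared by similar copies, so values of close paralogs (EIF1 and EIF1B, EIF4A1 and EIF4A2) are uncertain. The table held no column of another sample (0 columns were left unused).

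The value of a gene ID was the sum over its transcripts. Genes averaging 1 TPM or more across the 6 libraries entered limma 3.58.1 in R 4.3.3 (lmFit, eBayes with a trend) on log2(TPM + 1), with Benjamini-Hochberg adjustment over all 8708 of them. A gene passed at an FDR under 0.05 and was called where the log2 fold change was also over 1 in size. The authors used edgeR, a count test that TPM values do not allow. Sums and ratios were compared by exact two-sided permutation tests. Only the limma fit was tested on simulated data, with known changes larger than that of any member. The gene sums, complex sums, ratios, permutation tests and other scalings were not simulated.

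The members, gene lists and rules were chosen with earlier results of these data known. The rule for named genes took all tested genes of eIF2, eIF2B, the kinases and the eIF4E-binding group, the members with an FDR under 0.05 and a log2 fold change of at least 0.5 in size, the most abundant member of each complex, and, of the other lists, the called genes, the 5 largest changes, ATF4, DDIT3, PPP1R15A and PPP1R15B. Other genes were named after their values were seen. Replicate numbers did not pair the libraries. Alternatives were another pseudocount, no filter, 2 other scalings, the highest listed transcript, symbols from reference tables, the replicate number as a block and each library left out. Sequences were not used here.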

Additional observations from a re-analysis of the deposited data

How the results depend on the processing

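The limits are these: TPM gives no read counts, so no counting error could be given, 3 libraries a group allow no exact p below 0.1, and genes listed near 0 may have been missed. Counts of members that passed stayed within 1.5 times of 12 higher and 10 lower in all alternatives except the scaling without the mitochondrial genes, which gave 16 lower and a median of −0.049, with log2 ratios of the sums of 0.35 for eIF2, 0.079 for eIF3 and −0.43 for eIF4; the median-ratio scaling gave 0.45, 0.18 and −0.32, and the highest listed transcript −0.32 for eIF4. The count of called members was 1 with a pseudocount of 0.1 TPM (EIF4E3, 1.11), without the mitochondrial genes (EIF4G1, −1.08) and with the highest listed transcript (EIF1), and 0 to 1 when single libraries were left out (EIF1 without CON replicate 2, 1.01). Log2 fold changes that reversed were those of EIF2D, EIF2B1, EIF2B4, EIF4G2, EIF4ENIF1, EIF5A2 and PPP1R15B without the mitochondrial genes (−0.10, −0.049, −0.011, −0.10, −0.0078, −0.063 and −0.016), of EIF2D, EIF4G2 and EIF5A2 in the median-ratio scaling (−0.031, −0.0032 and −0.016), and of EIF2B4 and EIF5A2 with the highest listed transcript (−0.23 and −0.080). With single libraries left out, EIF2D ranged from −0.13 to 0.17, EIF2AK3 from −0.0063 to 0.33, EIF5A2 from −0.48 to 0.074 and PPP1R15B from −0.10 to 0.32. Without CON replicate 1 or 2, EIF5A2 fell under the filter and was not tested, so its range leaves those runs out. None of these genes passed in the main comparison, and the cause was not tested.

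Same-numbered libraries did not deviate together (correlations of their deviations from the group means −0.035, −0.092 and −0.051), so they shared only a number. With the replicate number as a block, 11 members were higher and 9 lower, and EIF2AK1, EIF3H and ETF1 no longer passed. With symbols from the reference tables, 51 gene IDs matched, 43 were tested, 14 rose and 11 fell. The planned search of promoters and proteins was not run, since no sequence table was used here.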

Other observations

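Some gene IDs carry no EIF name in the deposited table but are described there as initiation factors, and they were read in the same limma fit as values only. There were 15 such IDs, of which 6 were tested, 4 rose and 1 fell, a share of 83.3% past the test beside 53.2% of all tested genes. The ID described as eIF6, which keeps the ribosomal subunits apart until they are mature, had 176, 196 and 176 TPM in CON and 284, 305 and 297 TPM in CDCA (log2 fold change 0.69, SE 0.05, limma FDR 9.1e-05). The ID described as eIF5A, which keeps ribosomes moving on difficult sequences, had 541, 561 and 529 TPM in CON and 397, 409 and 387 TPM in CDCA (−0.45, SE 0.04, limma FDR 0.00013). CON and CDCA libraries were fully apart for both.

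The ID of eIF3 subunit K rose from 12.9 ± 0.728 to 15.5 ± 0.986 TPM (SD, n = 3, 0.25, limma FDR 0.021), and an ID described as translation initiation factor IF-2 rose from 2.43 ± 0.416 to 3.88 ± 0.458 TPM (0.51, limma FDR 0.013). The ID described as eIF4E-binding protein 3, whose deposited symbol is ANKHD1, a gene that lies beside it and is read through with it, rose from 1.44 ± 0.351 to 2.81 ± 0.160 TPM (0.65, limma FDR 0.0059), and which of the pair it reads cannot be told. The gamma subunit of eIF2, which carries the initiator tRNA and GTP, was at 1.07 ± 0.211 and 1.02 ± 0.0862 TPM (−0.03, FDR 0.87). The IDs described as eIF5 and eIF3 subunit C had means under 1 TPM and were not tested.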
